A study of Homo sapiens with 12 samples.

Results

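The genes described here are 7 that serve the sensing of RNA in the cytosol or encode related helicases: DDX58, IFIH1, DHX58, MAVS, DDX60, DDX60L and HELZ2. They were taken by symbol from the deposited gene table and are 7 of the 60099 genes it lists. All 7 passed the filter on low counts and were among the 19944 genes tested. They were measured in Cal27 and HN30 cells, established lines of head and neck squamous cell carcinoma (HNSCC) that were left without IFNα or given 20 or 200 ng/ml IFNα for 24 h, with 12 samples in all and 4 at each dose. The sample letters form 2 line sets of 2 replicates a dose, A, B, C and D, E, F, in which A and D are the controls, B and E the low dose and C and F the high dose. The labels do not name which set is Cal27 and which is HN30, so the names A-C and D-F are used. Each line is a single cultured model, and nothing in the labels says that replicates came from separate cultures, so p-values measure the spread between these samples, which may be technical.

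RNA in the cytosol that carries marks of a virus is recognized by the RIG-I-like receptors (RLRs). DDX58 encodes RIG-I, which binds RNA ends with a 5′ triphosphate, IFIH1 encodes MDA5, which binds long duplex RNA, and both pass the signal through their CARD domains to MAVS, an adaptor on the outer mitochondrial membrane. MAVS then recruits the kinases TBK1 and IKKε (IKBKE), which activate IRF3 and IRF7 and lead to transcription of type I interferon. DHX58 encodes LGP2, a receptor of the same family that lacks the CARD domains and modulates the other two. DDX60 and DDX60L are neighbouring DExD/H-box helicase genes on chromosome 4, and HELZ2 encodes a large helicase that was described as a transcriptional coactivator.

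In the 12 samples the summed TPM (a level scaled for transcript length and sequencing depth) of 8 squamous epithelial markers was between 1186 and 3350. KRT14 was at 41.9 to 49.2 TPM in A-C and at 0 to 0.254 TPM in D-F, so that marker was nearly absent from the second set. Of 6 markers of other cells, CD3E had 0 counts in every sample and PTPRC had at most 2, while CD68 had 5.29 to 39.6 TPM. The fibroblast marker COL1A1 had 3.43 to 13.0 TPM and COL1A2 had 0.302 to 1.73 TPM. PECAM1, of endothelium, had at most 0.576 TPM. The summed TPM of the 6 was 14.4 to 24.0 in controls, 25.0 to 37.5 at 20 ng/ml and 22.04 to 52.9 at 200 ng/ml, and its part in the results was not tested. Library totals were 12670755 to 16056734 estimated counts in controls, 11174407 to 14865450 at 20 ng/ml and 10517448 to 11854183 at 200 ng/ml. Log counts of samples correlated at 0.940 to 0.976 within line sets (30 pairs) and at 0.678 to 0.717 between them (36 pairs), over 13033 genes. As a check of the doses, all 16 of a list of well-known interferon-stimulated genes were called higher at both doses. Of all genes 1.58% were called higher at 200 and 0.963% at 20 ng/ml. The median log2 fold change of the 16 was 4.71 at 200 and 4.24 at 20 ng/ml, beside -0.01 over all genes at each dose.

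Promoters are shown because 6 of the 7 genes moved together under IFNα, and interferon acts through known DNA motifs. The sequences are from RefSeq (GRCh38.p14) and run from 250 bases before to 50 bases after each gene's start. The table held 7 entries for 6 of the genes, DDX58 under its newer symbol RIGI and HELZ2 with 2 entries. Both strands were searched for the ISRE core, that is GAAA, 2 bases of any kind and GAAA again, and for the GAS core TTCNNNGAA. A GAAA pair with 1 base between, GAAANGAAA, was added after the promoters had been read. Capitals mark matches to either GAAA pair on either strand, and each sequence reads 5′ to 3′ along the gene's own strand. DHX58 had no entry, and the 2 entries of HELZ2, which held no match, are not printed.
DDX58 (chr9:32526147-32526446, minus strand): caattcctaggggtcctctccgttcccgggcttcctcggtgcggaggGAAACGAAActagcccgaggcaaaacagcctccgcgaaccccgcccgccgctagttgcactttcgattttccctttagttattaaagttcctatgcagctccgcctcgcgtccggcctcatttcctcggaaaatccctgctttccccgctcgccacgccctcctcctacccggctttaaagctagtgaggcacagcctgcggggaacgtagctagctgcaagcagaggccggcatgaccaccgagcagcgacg
IFIH1 (chr2:162318635-162318934, minus strand): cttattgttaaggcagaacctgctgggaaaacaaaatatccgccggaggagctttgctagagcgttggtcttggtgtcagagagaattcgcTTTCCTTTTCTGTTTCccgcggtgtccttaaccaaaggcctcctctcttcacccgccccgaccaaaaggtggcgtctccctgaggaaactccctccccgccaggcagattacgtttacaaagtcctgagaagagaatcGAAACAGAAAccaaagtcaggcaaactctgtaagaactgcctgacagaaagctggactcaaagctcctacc
DDX60 (chr4:168318703-168319002, minus strand): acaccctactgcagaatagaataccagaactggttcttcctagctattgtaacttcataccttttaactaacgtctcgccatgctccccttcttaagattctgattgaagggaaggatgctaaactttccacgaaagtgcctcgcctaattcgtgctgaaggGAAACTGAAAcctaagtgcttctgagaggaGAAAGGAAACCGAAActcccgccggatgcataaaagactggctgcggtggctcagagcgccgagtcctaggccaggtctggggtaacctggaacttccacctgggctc
DDX60L (chr4:168480443-168480742, minus strand): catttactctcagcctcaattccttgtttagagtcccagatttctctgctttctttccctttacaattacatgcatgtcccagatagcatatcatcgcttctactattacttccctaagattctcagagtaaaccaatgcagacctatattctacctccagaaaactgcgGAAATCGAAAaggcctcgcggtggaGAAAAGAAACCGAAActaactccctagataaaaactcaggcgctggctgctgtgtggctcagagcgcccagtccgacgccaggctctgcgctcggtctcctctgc
MAVS (chr20:3846584-3846883, plus strand): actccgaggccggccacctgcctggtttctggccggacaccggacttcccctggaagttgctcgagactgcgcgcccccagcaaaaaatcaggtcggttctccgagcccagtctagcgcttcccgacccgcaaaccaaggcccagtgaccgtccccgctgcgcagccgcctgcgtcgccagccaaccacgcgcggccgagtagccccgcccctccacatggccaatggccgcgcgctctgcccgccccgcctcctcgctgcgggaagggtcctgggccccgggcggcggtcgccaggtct

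The ISRE core matched 3 times in IFIH1, where the pair of matches on the opposite strand overlap each other, and 2 times each in DDX60 and DDX60L. Of all 35116 promoters in the table, 3.57% held at least 1 such match. In DDX60 the matches began at positions -88 and -53 from the start, and in DDX60L at -80 and -50. The closer spacing, GAAANGAAA, was found in DDX58 at -203, and in DDX60 and DDX60L at -58 and -55, where it overlapped the ISRE core match next to the start. It was held by 3.12% of all promoters. The GAS core was found only in DDX60 among these entries, at -124, and in 7.66% of all promoters. In MAVS and in both HELZ2 entries none of the 3 patterns was present within this window. The deposited DDX58, IFIH1, DDX60 and MAVS begin upstream of the RefSeq start but within the window, so the match next to the start of IFIH1 and that of DDX60 reach into the deposited gene. The deposited DDX60L runs past the whole window through DDX60L-204 and DDX60L-211, transcripts at no more than 0.0375% of its TPM at 200 ng/ml. These matches are a description of letters and were not tested for binding.

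DDX58 (ENSG00000107201, chr9:32455705-32526324, minus strand, GRCh38), the gene of RIG-I, rose about 7-fold. Its level in the controls was 29.6 and 29.1 TPM in A and 22.3 and 20.8 TPM in D. At 20 ng/ml it was 135 and 138 TPM in B and 126 and 140 TPM in E, and at 200 ng/ml 182 and 185 TPM in C and 193 and 178 TPM in F. The 3 doses did not overlap over the 4 samples each, and the line sets reached nearly the same level at 200 ng/ml. The fitted log2 fold change with 200 ng/ml was 2.83 (SE 0.06), a 7.13-fold rise, with an adjusted p of 2.55e-09 by edgeR's quasi-likelihood test. Fold changes are averages over the line sets of a fit to all 12 samples, and bulk RNA cannot tell a rise in every cell from a rise in part of them.

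IFIH1 (ENSG00000115267, chr2:162267079-162318703, minus strand), the gene of MDA5, was at 19.7 and 22.5 TPM in A and at 16.4 and 18.3 TPM in D. With 20 ng/ml its level was 84.1 and 83.7 TPM in B and 118 and 125 TPM in E. With 200 ng/ml it was 115 and 97.3 TPM in C and 155 and 148 TPM in F. Treated samples lay above controls in both sets, and those of D-F lay above those of A-C at each dose although the D controls were the lower ones. At 200 ng/ml the log2 fold change reached 2.75 (SE 0.07), 6.71-fold, with an adjusted p of 1.42e-08 in edgeR.

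DHX58 (ENSG00000108771, chr17:42101404-42112733, minus strand), the gene of LGP2, was the least abundant of the 3 receptors in all 12 samples. The controls held 14.2 and 15.0 TPM in A but 4.30 and 2.54 TPM in D, which rest on 64 and 56 estimated counts. At 20 ng/ml the level was 53.0 and 56.9 TPM in B and 36.1 and 28.6 TPM in E. At 200 ng/ml it was 60.2 and 59.5 TPM in C and 40.5 and 41.7 TPM in F. A-C stayed above D-F at every dose, with no overlap, and treated samples lay above the controls of either set. The edgeR log2 fold change with 200 ng/ml was 2.62 (SE 0.09), 6.15-fold, with an adjusted p of 9.00e-08.

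MAVS (ENSG00000088888, chr20:3846799-3876123, plus strand), the adaptor of these receptors, fell. It was at 42.5 and 40.2 TPM in A and 72.3 and 69.9 TPM in D, and at 20 ng/ml at 32.7 and 35.3 TPM in B and 60.0 and 57.4 TPM in E. At 200 ng/ml it stood at 31.7 and 30.3 TPM in C and 53.0 and 53.9 TPM in F. Within each line set the doses did not overlap, though over both sets together they did, because D-F was higher throughout. The log2 fold change was -0.45 (SE 0.05) at 200 ng/ml, which is 73.4% of the control level, with an adjusted p of 0.000355, and -0.32 at 20 ng/ml with an adjusted p of 0.00501, both in edgeR. In each line set alone the fall at 200 ng/ml had an adjusted p of 0.00932 (A-C) and 0.00220 (D-F). At 20 ng/ml it passed in D-F, with 0.0226, and not in A-C, with 0.0921. The change was under 2-fold and so was not called.

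DDX60 (ENSG00000137628, chr4:168216293-168318807, minus strand) was at 11.9 and 11.1 TPM in A and 20.4 and 16.6 TPM in D. At 20 ng/ml it was at 48.4 and 45.3 TPM in B and 103 and 104 TPM in E, and at 200 ng/ml at 58.8 and 61.9 TPM in C and 115 and 104 TPM in F. D-F was above A-C at each dose. At 200 ng/ml its log2 fold change stood at 2.51 (SE 0.07), 5.68-fold, with an adjusted p of 1.43e-08 in edgeR.

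DDX60L (ENSG00000181381, chr4:168356735-168537786, minus strand) was at 15.8 and 15.4 TPM in A and 33.1 and 34.4 TPM in D. It reached 68.2 and 72.7 TPM in B and 232 and 236 TPM in E at 20 ng/ml, then 95.3 and 89.1 TPM in C and 293 and 278 TPM in F at 200 ng/ml. The F samples were the highest values of any of the 7 genes. At 200 ng/ml the log2 fold change came to 2.72 (SE 0.05), 6.58-fold, with an adjusted p of 8.05e-10 in edgeR. DDX60L overlaps PALLD, a gene of the actin cytoskeleton on the opposite strand, over 40721 bases. PALLD had 877 to 1778 estimated counts, and whether the counting used strand is not stated. Only DDX60L-204 and DDX60L-211 run past base 168480514, and each held at most 0.0375% of the DDX60L TPM at 200 ng/ml. Whether PALLD reads entered the DDX60L counts was not tested.

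HELZ2 (ENSG00000130589, chr20:63558086-63574239, minus strand) was at 16.4 and 19.4 TPM in A and 24.8 and 25.4 TPM in D. At 20 ng/ml it was at 71.8 and 77.9 TPM in B and 167 and 152 TPM in E. At 200 ng/ml it was at 70.2 and 59.5 TPM in C and 185 and 203 TPM in F. C lay below B, while F lay above E. At 200 ng/ml its log2 fold change stood at 2.40 (SE 0.10), 5.29-fold, with an adjusted p of 4.31e-07 in edgeR.

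**Figure D1:**
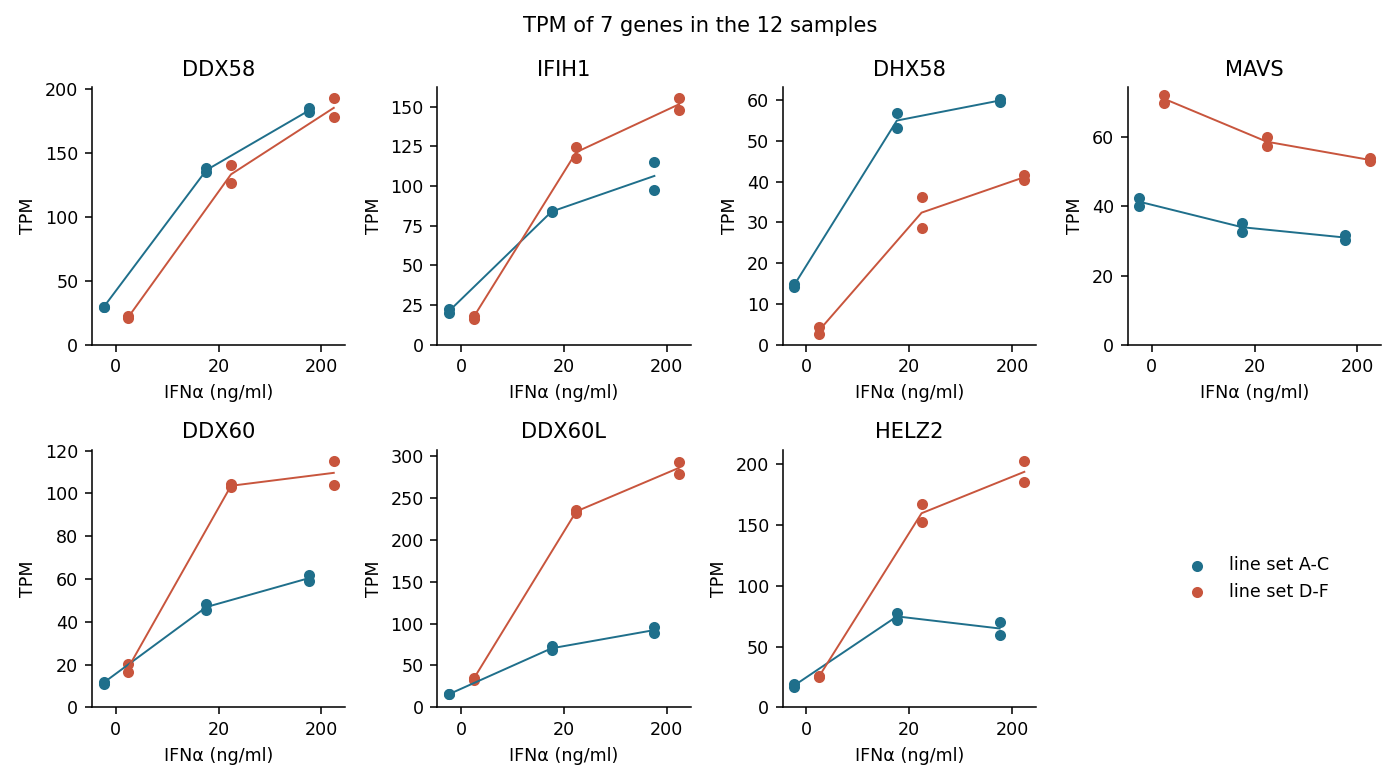
TPM of each of the 7 genes (vertical axes from 0, scale differing by gene) against the IFNα dose in ng/ml, with a point for each sample and a line through the mean of the 2 replicates of each line set. MAVS is lower at 200 ng/ml than in control, at 69.9 to 72.3 TPM in D and 53.0 to 53.9 TPM in F. The other 6 rise against control, and among them HELZ2 in A-C is the one whose mean is lower at 200 than at 20 ng/ml.

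A gene was called when its adjusted p was at most 0.05 and its change at least 2-fold. At 200 ng/ml 6 of the 7 genes were called higher, against 1.58% of all genes tested. With no fold threshold the same 6 rose, against 4.98% of genes, and MAVS fell, against 4.57%. At 20 ng/ml again 6 were called higher, against 0.963% of all genes, and MAVS fell with no fold threshold, against 1.6%. The log2 fold changes at 20 ng/ml were 2.38 for DDX58, 2.42 for IFIH1, 2.42 for DHX58, 2.26 for DDX60, 2.33 for DDX60L and 2.36 for HELZ2. The median over the 7 was 2.62 at 200 and 2.36 at 20 ng/ml. The 2 doses share their control samples, so these values are set side by side and not compared.

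The 20 and 200 ng/ml doses were compared directly. No gene of the 7 was called by edgeR or DESeq2, against 0.0451% of all genes (9 genes) in edgeR. With no fold threshold 2 passed in edgeR, against 0.135% of all genes, and 6 had an unadjusted p of at most 0.05, as did 9.26% of all genes. DDX58 was higher at 200 ng/ml by 0.45 on the log2 scale (SE 0.06) with an adjusted p of 0.0211 in edgeR, and DDX60L by 0.38 (SE 0.05) with an adjusted p of 0.0179. Both were above their 20 ng/ml samples within each line set, but so were IFIH1 and DHX58, and MAVS was below in each. DDX60 overlapped in D-F, and HELZ2 was below in A-C and above in D-F. The share of all genes without overlap was not counted. DDX58 no longer passed without B1, B2, C2, D1, E1, F1 or F2 (adjusted p up to 0.104), nor DDX60L without B1, B2, E1, E2, F1 or F2 (up to 0.0932). IFIH1 was at 0.33 (SE 0.07, adjusted p 0.177), DHX58 at 0.20 (SE 0.08, adjusted p 0.530), DDX60 at 0.24 (SE 0.06, adjusted p 0.290) and MAVS at -0.13 (SE 0.05, adjusted p 0.442). HELZ2 was at 0.04 (SE 0.10, adjusted p 0.963), which joined -0.21 in A-C with 0.28 in D-F.

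**Figure D2:**
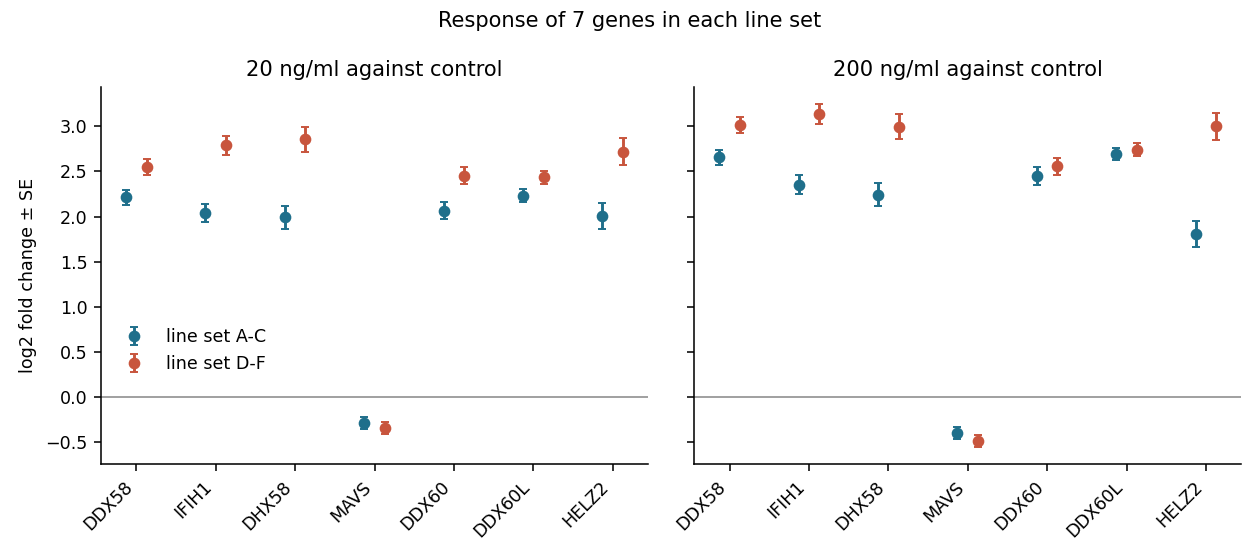
Log2 fold change against control (vertical axis, with SE from edgeR) for the 7 genes at 20 and 200 ng/ml, by line set. The 6 genes that rose lie between 1.80 and 3.14, with D-F above A-C for each, and MAVS lies between -0.29 and -0.49.

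The response was then compared between the line sets. At 200 ng/ml HELZ2 rose 3.49-fold in A-C and 8.01-fold in D-F, log2 fold changes of 1.80 and 3.00, and the difference of 1.20 (SE 0.20) was called, with an adjusted p of 0.0239 in edgeR. It was the only one of the 7 called, against 0.998% of all genes. The difference was between 0.99 and 1.40 when each library was left out in turn, and its adjusted p rose above 0.05, to at most 0.101, without A2, C2, D1, D2, F1 or F2. IFIH1 rose 5.11-fold in A-C and 8.80-fold in D-F, and its difference of 0.78 (SE 0.14) had an adjusted p of 0.0314, under the fold threshold. With no fold threshold IFIH1 and HELZ2 made 2 of 7, against 1.88% of all genes. IFIH1 kept its adjusted p under 0.05 only when A1 or C1 was left out, and reached 0.128 without D1. DHX58 differed by 0.76 (SE 0.18) with an adjusted p of 0.0701 and DDX58 by 0.36 (SE 0.12) with 0.154, while DDX60 stood at 0.11 (SE 0.13), DDX60L at 0.05 (SE 0.09) and MAVS at -0.09 (SE 0.09).

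At 20 ng/ml the differences between line sets were 0.75 for IFIH1 (SE 0.14, adjusted p 0.0698 in edgeR), 0.87 for DHX58 (SE 0.18, adjusted p 0.0928) and 0.71 for HELZ2 (SE 0.20, adjusted p 0.225). None of the 7 was called by edgeR or DESeq2, against 0.231% of all genes in edgeR, and 5 had an unadjusted p of at most 0.05, as did 10.5% of all genes. DDX58, DDX60, DDX60L and MAVS had differences of 0.34, 0.39, 0.20 and -0.06. Without C1 or C2 the IFIH1 difference passed, with adjusted p of 0.0451 and 0.0448.

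Without IFNα the sets already differed. Of the 7 genes, 6 passed at the adjusted p, where 46.4% of all genes did, and 2 were called, where 26.6% of all genes were. DHX58 was lower in D than in A, at 28.3% of its level there (log2 -1.82, SE 0.14, adjusted p 6.23e-06 in edgeR), and DDX60L was 2.66-fold higher (log2 1.41, SE 0.07, adjusted p 4.30e-07). DDX58 and IFIH1 were lower in D, with log2 differences of -0.57 and -0.42, and MAVS and DDX60 were higher, with 0.66 and 0.46. The IFIH1 difference lost its pass without A2 or D1. HELZ2 was at 0.26 (SE 0.14, adjusted p 0.170), which became 0.47 and passed without A2 and became 0.069 without A1.

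**Figure D3:**
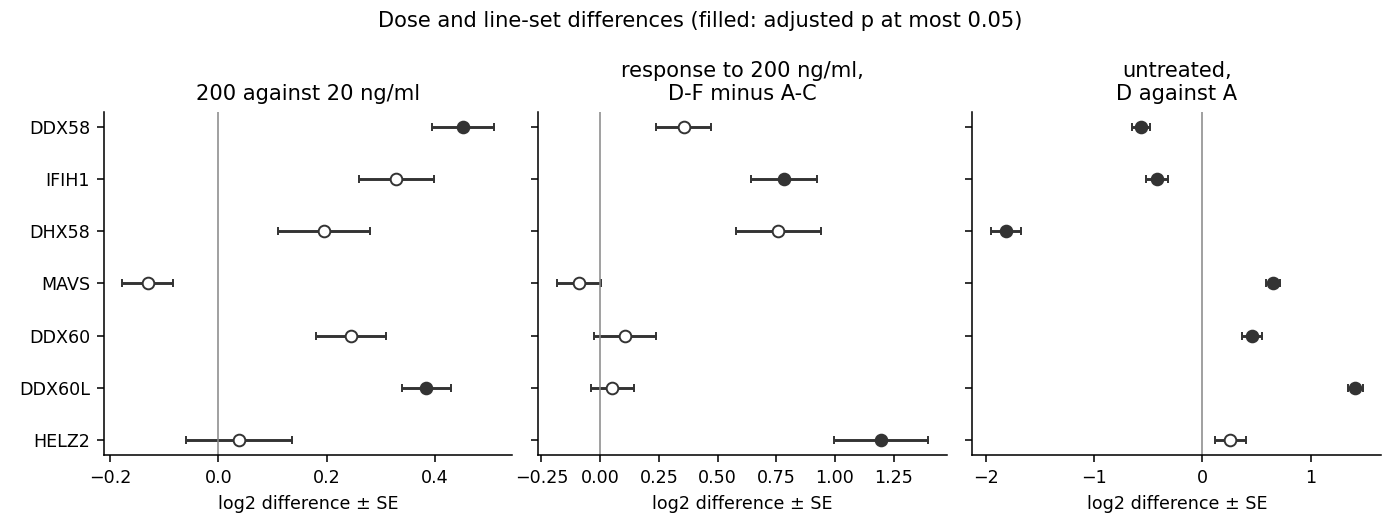
Log2 differences with SE from edgeR for 200 against 20 ng/ml, for the response to 200 ng/ml in D-F minus that in A-C, and for untreated D against A. Filled points passed at an adjusted p of at most 0.05, among them DDX58 and DDX60L for dose, IFIH1 and HELZ2 for the response, and all but HELZ2 for the untreated sets.

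Ranking the 7 by TPM shows how the order turned. In the controls MAVS was highest, at a mean of 41.3 TPM in A and 71.1 TPM in D. In A it was followed by DDX58, IFIH1, HELZ2, DDX60L, DHX58 and DDX60, none of which overlapped its neighbour. In D the order was DDX60L, HELZ2, DDX58, DDX60, IFIH1 and DHX58, with DDX60 and IFIH1 overlapping. At 200 ng/ml MAVS was last in C, at 30.99 TPM, and last but for DHX58 in F, at 53.4 TPM. DDX58 led in C with 183 TPM, and HELZ2, DDX60 and DHX58 overlapped there in sequence. DDX60L led in F with 286 TPM, and HELZ2 overlapped DDX58 behind it.

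Among the 3 receptor genes, DHX58 made up 22.4% of their summed TPM in A, 19.9% in B and 17.1% in C, so in A-C its share was lower at each higher dose. In D, E and F its share was 8.05%, 11.3% and 10.9%, higher in the treated samples than the mean of the controls. Averaged over the sets the share at 200 ng/ml was -1.24 percentage points from control, with p = 0.667 in a two-sided exact permutation test within line sets. DDX58 made up 43.8% to 54.1% of the sum in every sample.

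DDX60 was below DDX60L in all samples. The ratio of their TPM was 0.752 and 0.718 in A and 0.617 and 0.695 in C, and 0.617 and 0.482 in D and 0.392 and 0.374 in F. The log2 ratio at 200 ng/ml differed from control by -0.34 on average (-0.21 from the estimated counts), with p = 0.0556 in the two-sided exact permutation test, which is the smallest that its 36 arrangements allow. The Benjamini-Hochberg adjusted values over these 2 tests were 0.111 for the ratio and 0.667 for the share. Little sequence is shared by the pair. Of the distinct 31-base words in the DDX60 transcripts 1.24% also occurred in DDX60L, and 0.684% the other way.

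**Figure D4:**
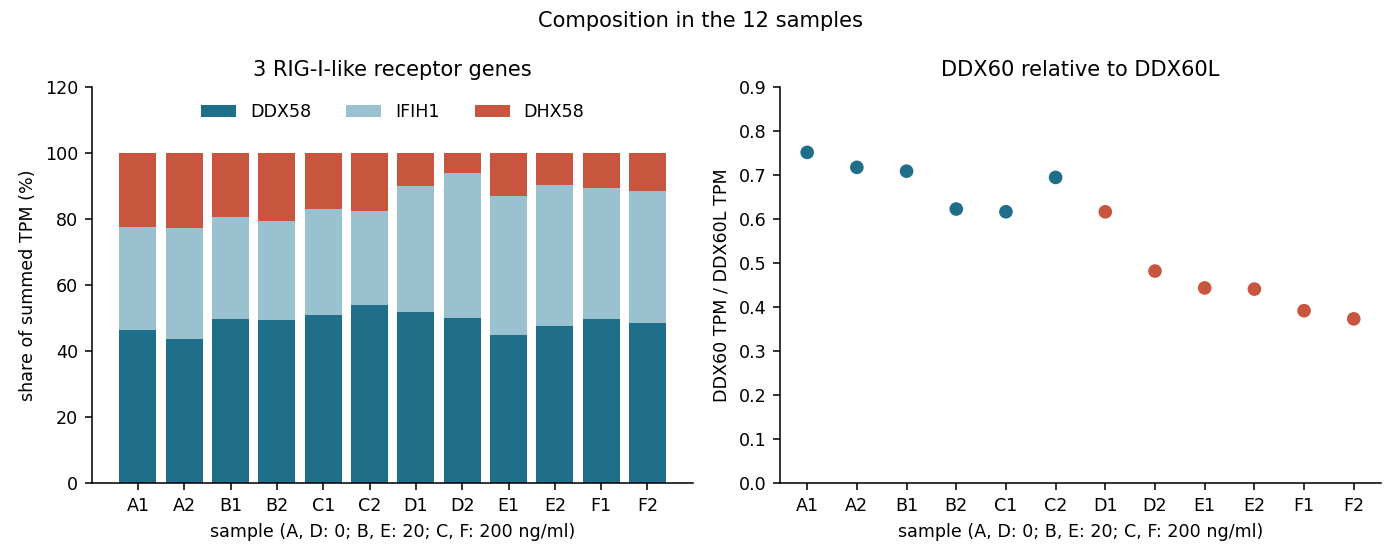
Left, the share (%) of DDX58, IFIH1 and DHX58 in their summed TPM in each of the 12 samples; right, the ratio of DDX60 to DDX60L TPM, with A-C in blue and D-F in red. DHX58 takes 16.9% to 22.5% in A-C and 6.10% to 12.9% in D-F, and the ratio is lowest in F, at 0.374 and 0.392.

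Among the other genes of the RLR pathway IRF7 was the one called. Of a list of 34 genes that act around the receptors and MAVS, 31 were tested, and IRF7, which drives interferon transcription, was called at 200 ng/ml, up by 2.81 on the log2 scale (SE 0.16, adjusted p 3.26e-06 in edgeR). Of all genes 1.58% were called higher at that dose. With no fold threshold 9 of the 31 rose and 1 fell, beside 4.98% and 4.57% of all genes. The median of the 31 was 0.06 beside -0.01 for all genes. TRIM25, a ubiquitin ligase of RIG-I, rose by 0.90, and the kinases TBK1 and IKBKE by 0.43 and 0.46. IRF3, the factor that the kinases activate first, stood at 0.06 (adjusted p 0.821). RNF135, another ligase of RIG-I, stood at -0.41 (adjusted p 0.168) and NLRX1, a mitochondrial protein of the NLR family, at -0.16 (adjusted p 0.547). The remaining genes that passed, named after their values were seen, were ZC3HAV1 (0.79), CASP8 (0.63), AZI2 (0.60), RIPK1 (0.55) and FADD (0.31) upward and PPP1CA, a catalytic subunit of a phosphatase that acts on the receptors, downward (-0.50). The interferon genes IFNB1 and IFNL1 had at most 4 and 8 estimated counts in a sample and LRRC25 at most 2, and these were not tested. At 20 ng/ml IRF7 was again the gene called, where 0.963% of all genes were called higher. With no fold threshold 5 of the 31 passed there, as did 784 of all 19944 genes.

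Helicases related to the members by function or sequence were compared in the same way. Of 13 other helicases described as nucleic acid sensors, such as DDX3X, DHX9 and DHX36, none was called or passed at either dose in edgeR. At 200 ng/ml 1.58% of all genes were called higher, and the median of the 13 was 0.06. With the higher dose 4 of them had an unadjusted p of at most 0.05, as did 23.9% of all genes, and DESeq2 called none and passed 1. Of 9 UPF1-like helicases, the family that holds HELZ2, ZNFX1 was called at 200 ng/ml, at 1.11 (SE 0.24, adjusted p 0.0187 in edgeR), beside the same 1.58%. With no fold threshold 3 of the 9 passed, all higher, where 4.98% of all genes rose. ZNFX1 was no longer called without A1, A2, C2, D1 or F1. MOV10, named after its value was seen, passed at 0.69, and HELZ, the relative by name, stood at 0.19 (adjusted p 0.106). Of 8 SKI2-like helicases and partners, the family nearest to DDX60, 7 were tested and none was called by edgeR or DESeq2, with 3 at an unadjusted p of at most 0.05 beside the same 23.9%. SNRNP200 and ASCC3 passed, both lower, at -0.32 and -0.23, where 4.57% of all genes fell with no fold threshold. The median of those tested was -0.15.

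**Figure D5:**
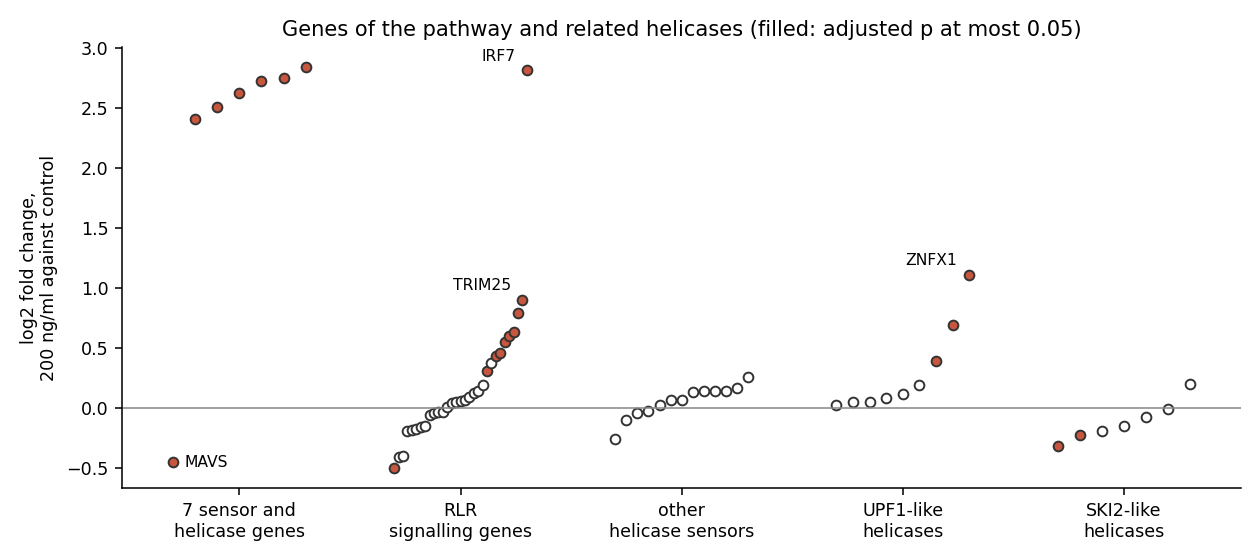
Log2 fold change at 200 ng/ml against control for the 7 genes and for the tested genes of 4 lists, each point a gene in rising order within its list. Filled points passed at an adjusted p of at most 0.05; IRF7 at 2.81 is the one listed gene as high as the members, and ZNFX1 at 1.11 comes next.

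At the level of transcripts, 43 were listed for the 7 genes and 33 were tested. Of these 11 were called higher at 200 ng/ml, against 0.343% of all 75876 transcripts tested, and 31 had a positive fold change, as did 46.5% of all transcripts. The count of 11 was 4 with a replicate block and 22 by DESeq2, for which shares over all transcripts are not given here. An unadjusted p of at most 0.05 was held by 25, as by 8.87% of all transcripts. Division of reads between overlapping transcripts is an estimate, and the biological coefficient of variation was 0.837 over transcripts against 0.196 over genes. Shares are means over the samples of a dose. DDX58-202 held 87.7% of the DDX58 TPM at 200 ng/ml and rose by 2.72 (SE 0.12, adjusted p 0.000119 in edgeR), while DDX58-201 held 12.3%. DDX60-201, with 38 exons, held 91.2% of the DDX60 TPM and rose by 2.46 (SE 0.08, adjusted p 4.23e-05).

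IFIH1-201, with 16 exons, rose by 2.78 (SE 0.10, adjusted p 4.23e-05 in edgeR), from 12.1 to 15.5 TPM in the controls to 76.5 to 129 TPM at 200 ng/ml. The short IFIH1-202, with 2 exons, was at 2.65 to 6.58 TPM in controls and at 9.96 to 11.97 TPM at 200 ng/ml, which the fit gives as a rise of 1.40 on the log2 scale (SE 0.34) that did not pass (adjusted p 0.231). Its share of the IFIH1 TPM was 20.3% in controls and 8.99% at 200 ng/ml, and the share of the retained-intron transcript IFIH1-203 was 6.53% and 10.1%. The change of share was not tested.

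DDX60L was spread over more transcripts. DDX60L-208, annotated as a retained intron, held 28.8% of its TPM at 200 ng/ml and the coding DDX60L-201 held 24.6%. They rose by 3.17 and 3.16, with adjusted p of 0.00470 and 0.00144 in edgeR, and DDX60L-207 and DDX60L-216 were called too. DDX60L-209, with 12.1%, was not called, at 2.70 (adjusted p 0.689), nor was DDX60L-205 at 2.30 (adjusted p 0.261), which held 4.18% as the mean of its share in each sample and 5.13% as a share of the mean TPM. For HELZ2, the coding transcripts HELZ2-202 and HELZ2-204 held 41.4% and 30.9% and were called, at 2.59 (SE 0.33) and 2.14 (SE 0.31), as were HELZ2-205 and HELZ2-206, while HELZ2-201, a retained intron at 2.16, had an adjusted p of 0.138.

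No transcript of DHX58 was called by edgeR among 6 tested, although 5 had an unadjusted p of at most 0.05, as did 8.87% of all transcripts, and DESeq2 called 4. DHX58-201, with 14 exons, held 25.1% of its TPM at 200 ng/ml, DHX58-208 20.9%, DHX58-202 20.1%, DHX58-203 17.6% and DHX58-204 12.1%. DHX58-203 was at 0 TPM in 7 of the 12 samples. MAVS-202 held 82.8% of the MAVS TPM in controls and 86.9% at 200 ng/ml. Its log2 fold change was -0.42 and that of MAVS-201 was -0.68, with adjusted p of 0.850 and 0.994 in edgeR, and neither DESeq2 nor an unadjusted p of at most 0.05 picked either. In B1 the split between the pair was the reverse of B2, with 25.2 TPM for MAVS-201 against 1.85.

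Genes most like each of the 7 were taken as those with the smallest root mean square difference over 4 log2 fold changes, 20 and 200 ng/ml in each line set, among 19937 other genes. DDX58 was nearest to SAMHD1 (0.121) and RIMS2 (0.183), IFIH1 to HERC5 (0.133) and IRF9 (0.137), and DHX58 to PARP14 (0.0998) and IRF9 (0.109). DDX60 was close to PLSCR1 (0.184), and DDX60L to FBXO39 (0.107) and SAMHD1 (0.142). HELZ2 was nearest to FAM26E (0.131) and PARP14 (0.2195), and MAVS to AC005332.9 (0.0204) and RPL7A (0.0262). FAM26E and FBXO39 had mean counts of 14.5 and 33.4, so their fold changes are loosely known. IRF9, part of the factor that binds the ISRE, is itself induced by interferon.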

How the data were processed

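Total RNA of 12 samples was depleted of ribosomal RNA, made into directional libraries and sequenced by the authors on the HiseqXTen platform. The submitters' processing notes name Trimmomatic 0.36, HISAT2 2.1.0, StringTie 1.3.3b and GRCh38.p10. The annotation release is not given in the sources used here, nor is whether strand was used in counting. Gene and transcript tables deposited by the authors hold an estimated count, a whole number with no scaling for depth. The authors also deposited TPM and FPKM values, scaled for length and depth. Columns of per-sample values were matched to samples by name.

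TPM was used for levels, FPKM for 1 alternative, and the estimated counts for tests. Counts were fitted over all genes with edgeR 4.0.16 in R 4.3.3 (TMM, filterByExpr, quasi-likelihood test, 6 groups of line set and dose, Benjamini-Hochberg adjustment). The SE was taken as the absolute log2 fold change over the square root of the F statistic. The scripts were tested on simulated data. Alternatives were RLE normalization, no filter, DESeq2 1.42.0, a replicate block, other thresholds and leaving out each of the 12 libraries. The study's methods state a t-test with a fold change of 2. In place of the t-test edgeR was used here, since each line set and dose had only 2 replicates.

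Named were the 7 genes, their transcripts that were called or whose mean TPM at 200 ng/ml was at least 5% of the gene's mean TPM, called genes and a few fixed genes of each list, and the 2 nearest genes of each member. A few values that this rule or a count covers are not reported here. The members and lists were chosen with earlier results of these data known. Promoters were from RefSeq. Shared words were from GENCODE 29 transcripts.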

Additional observations from a re-analysis of the deposited data

Results flagged for a closer look

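HELZ2 and IFIH1 differed between the line sets in their response to 200 ng/ml IFNα by an interaction test in edgeR. The log2 fold change of HELZ2 was 1.80 in A-C and 3.00 in D-F, a difference of 1.20 (SE 0.20, adjusted p 0.0239), and that of IFIH1 was 2.35 and 3.14, a difference of 0.78 (SE 0.14, adjusted p 0.0314). Neither passed with the replicate block. HELZ2 also lost its call without A2, C2, D1, D2, F1 or F2, and IFIH1 passed only without A1 or C1 among the 12 left-out libraries.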

How the results depend on the processing

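The count of 6 genes called higher at 200 and at 20 ng/ml was 6 under every normalization, filter, tool, block and left-out library tried and with the unadjusted p, and 7 with no fold threshold, which adds MAVS as lower. The line-set difference at 20 ng/ml had 0 called in each of these. Leaving out 1 library leaves its group with a lone sample, which is assumed to vary like the other groups. Over the 12 left-out libraries the counts of members called ranged from 0 to 0 for 200 against 20 ng/ml, from 0 to 1 for the line-set difference at 200 ng/ml and from 2 to 2 for untreated D against A, and the UPF1-like count ranged from 0 to 1. HELZ2 at 200 against 20 ng/ml, 0.04 with all libraries, ranged from -0.061 to 0.12 and turned negative without C1 or F2. With no fold threshold 2 members passed for dose, 2 for the line-set difference at 200 ng/ml and 6 for the untreated sets. The shares of all genes were 0.135%, 1.88% and 46.4%. At 200 ng/ml against control 10 RLR signalling genes, 3 UPF1-like and 2 SKI2-like genes passed, where 4.98% of all genes rose and 4.57% fell. Of the member transcripts 22 were called by DESeq2 and 4 with the replicate block, against 11 in the main fit. With the unadjusted p 25 passed, as did 8.87% of all transcripts. Shares over all transcripts for DESeq2 and the block are not given here, and the cause was not tested. Deviations of same-numbered samples within line sets correlated at -0.0507 to 0.0585, so no large effect shared by replicate number was seen. These correlations cannot tell whether same-numbered samples were prepared together. With the replicate block 0 members were called for the line-set difference at 200 ng/ml, and DDX58 and DDX60L at 200 against 20 ng/ml and IFIH1 and HELZ2 in the line-set difference no longer passed. DESeq2 let IFIH1 pass at 200 against 20 ng/ml and IFIH1 and DHX58 in the line-set difference at 20 ng/ml. The DHX58 share ranged from -2.21 to -0.27 percentage points and the log2 ratio of DDX60 to DDX60L from -0.43 to -0.25 when libraries were left out, and the ratio was -0.21 from estimated counts. DHX58 in D rests on 56 to 64 estimated counts, the fewest of the 7 genes.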
